A study of Mus musculus with 15 samples.

Results

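The 37 genes described here encode enzymes of glycolysis, transporters and enzymes of lactate and pyruvate, regulators of glucose use, enzymes of the pentose phosphate pathway and 4 genes tied to hypoxia. They were taken from a list of gene symbols with no threshold on measured values, but the list was drawn up with earlier results of these data known. All 37 listed symbols were found among the 53546 symbols of the count table, and all 37 were among the 14683 genes that passed the filter on low counts. Their RNA was followed in sorted macrophages of the dura mater, the outer membrane around the brain. The cells were sorted as CD206-positive, CD206 being the mannose receptor encoded by Mrc1, which marks macrophages at the borders of the brain. The 15 libraries came from C57BL/6J mice of the genotype Cx3cr1GFP/wt, in which 1 allele of the chemokine receptor gene Cx3cr1 carries GFP, with no treatment. All ages shared this genotype, and no animals without the GFP allele were analysed here. There were 3 libraries for each of 5 ages, namely the embryonic stage E14.5 and the days after birth 3 (P3), 10 (P10), 21 (P21) and 56 (P56). The labels put P56 in a sequencing batch of its own and the other 4 ages in a shared one, so that age and batch cannot be told apart for P56. The submitters' design text speaks of 3 to 5 mice at each age, no library is labelled as a pool, and p-values measure the spread between libraries.

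Glycolysis splits glucose into pyruvate in the cytosol and yields ATP without oxygen. Lactate dehydrogenase can turn the pyruvate into lactate, which monocarboxylate transporters carry out of the cell, while the pyruvate dehydrogenase complex passes pyruvate on to the mitochondria unless pyruvate dehydrogenase kinases switch the complex off. The pentose phosphate pathway branches off after the first step and gives NADPH and ribose phosphate. Many of these genes are known targets of HIF-1, the transcription factor that the subunit HIF-1α forms when oxygen is low, and macrophages are known to raise glycolysis when they are activated.

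HIF-1 is known to bind the core letters ACGTG, and the 250 bases before the transcription start of every member were searched for them on both strands in the RefSeq promoter table (GRCm38.p6). A promoter window with the letters ACGTG (or CACGT, the same site read on the other strand) was present for 16 of 37 members, or 43.2%. The same letters stood in such a window of 25.0% of the tested genes that the promoter table holds and of 18.5% of all genes in that table. At least 2 sites in 1 window were found for 5 members (13.5%), against 3.65% of the tested genes. The letters GCGTG, the other common form of the core, occurred for 62.2% of members and 48.8% of tested genes. An ACGTG site within CACGTG is also an E-box, the motif of MYC and USF factors, reads alike on both strands and was counted once. Gpi1, Pfkl, Tpi1, Gapdh, Eno1, Pdk1 and Mif were called lower at P21 than at E14.5 by the test used below and had no ACGTG site in any window. Hk2 and Hif1a had 2 sites in 1 window each and were not called in that comparison. Below are 4 windows, so that sites can be seen in members that fell and in 1 that rose. Of these, 3 are of members whose RNA was lower at P21 than at E14.5, each with at least 2 sites, and 1 is of a member whose RNA was higher. Each is written 5′ to 3′ on the gene's own strand, with the matches in capitals.
Ldha, chr7:46845554-46845803, plus strand, sites 145, 48 and 34 bases before the start: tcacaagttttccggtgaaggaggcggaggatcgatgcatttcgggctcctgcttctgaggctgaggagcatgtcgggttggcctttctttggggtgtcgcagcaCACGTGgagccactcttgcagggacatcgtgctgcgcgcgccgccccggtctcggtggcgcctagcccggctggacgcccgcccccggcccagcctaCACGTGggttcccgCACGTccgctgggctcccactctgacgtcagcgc
Pgk1, chrX:106186850-106187099, plus strand, sites 150 and 131 bases before the start: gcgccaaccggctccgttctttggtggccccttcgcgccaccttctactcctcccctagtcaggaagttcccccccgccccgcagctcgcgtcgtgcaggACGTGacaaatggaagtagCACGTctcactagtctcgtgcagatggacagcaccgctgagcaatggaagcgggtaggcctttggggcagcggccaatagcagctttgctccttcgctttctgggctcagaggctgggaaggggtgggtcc
Slc16a3, chr11:120948817-120949066, plus strand, sites 27 and 14 bases before the start: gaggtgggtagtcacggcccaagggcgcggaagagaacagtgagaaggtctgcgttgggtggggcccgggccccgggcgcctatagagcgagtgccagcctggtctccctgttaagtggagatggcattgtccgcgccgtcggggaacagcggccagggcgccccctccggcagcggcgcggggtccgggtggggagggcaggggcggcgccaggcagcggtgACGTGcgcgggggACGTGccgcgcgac
Pfkfb3, chr2:11553930-11554179, minus strand, site 60 bases before the start: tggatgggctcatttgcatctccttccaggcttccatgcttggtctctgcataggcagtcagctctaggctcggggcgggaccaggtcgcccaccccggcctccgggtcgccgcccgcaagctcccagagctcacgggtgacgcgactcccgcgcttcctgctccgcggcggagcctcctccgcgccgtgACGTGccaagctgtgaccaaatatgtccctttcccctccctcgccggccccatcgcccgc
The Ldha sites 145 and 48 bases before the start are CACGTG. A match is a description of letters and says nothing of whether the factor binds there.

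The libraries held 17550170 to 30614583 counts, and replicates of an age correlated at 0.902 to 0.979 (Pearson's r of log2 CPM), the lowest value being between replicates 1 and 2 of P21. P21 replicate 2 also had the fewest genes with at least 10 counts of the 15 libraries (11254, against 12236 and 13058 in P21 replicates 1 and 3). It held the lowest level of the 15 for Pkm, Pgam1, Pgd, Pdk1, Pdha1, Tkt and Slc16a3, so 1 library recurs in the P21 values below. Mrc1 (1640 to 4006 CPM) and the macrophage receptor genes Csf1r and Adgre1 were present in every library. They belong to a list of 11 macrophage genes whose levels were not constant with age. By the test used below, 5 of the 11 were called higher and 0 lower at P21 than at E14.5 (45.5%, against 7.81% of all tested genes called higher). The test of any difference from E14.5 to P21 called 9 of the 11 (81.8%, against 12.3% of the genes tested). Levels of single genes are given in CPM, the count relative to the library's total scaled by TMM factors, and sums over a list in CPM of the plain total. The summed level of 16 proliferation genes was 3930 to 4107 CPM at E14.5, 2221 to 2402 at P3, 1197 to 1450 at P10, 655.5 to 1136 at P21 and 368.8 to 450.4 at P56, and 15 of the 16 were lower at P21 than at E14.5 by the test used below. Summed levels of genes of other cell types also varied with age. Red cell genes summed to between 138.8 and 381.5 CPM at E14.5 and between 7.043 and 26.76 CPM at P21, where 4 of the 9 tested were called lower. Fibroblast genes summed to between 66.84 and 706.1 CPM at E14.5 (the highest being replicate 3) and between 996.1 and 1846 CPM at P21, where 2 of 9 were called higher. Over all tested genes, 4.37% were called lower (proliferation 93.8%, red cell 44.4%) and 7.81% higher (fibroblast 22.2%) at P21 than at E14.5. The 7 mast cell genes summed to between 1.907 and 119.4 CPM at E14.5 and between 628.4 and 1739 CPM at P3. The 7 osteoclast genes summed to 480.6, 549.2 and 117.6 CPM at E14.5 (replicate 3 lowest), 829.5 to 1330 at P3, 825.6 to 1718 at P10, 186 to 246.8 at P21 and 78.82 to 393.3 at P56. Of the 5 tested, 1 was called lower at P21 than at P10 (20%, against 0.184% of all tested genes). Ccr2, a monocyte receptor gene, had 13.9 to 30.7 CPM at E14.5, 69.5 to 148 at P21 and 62.3 to 537 at P56. The part of these cells and of proliferation in the results was not tested, and in bulk samples fewer cells of a type and less RNA per cell cannot be told apart. Replicates 1 and 2 of E14.5 had Xist RNA (71.5 and 49.8 CPM) and almost no RNA of the Y-linked gene Ddx3y (0.434 and 0.477 CPM), while E14.5 replicate 3 and all other libraries had at least 46.8 CPM of Ddx3y. Sex therefore moved partly with age, and results against E14.5 are also given with replicate 3 as its only library.

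From E14.5 to P21, 8 of 17 glycolytic enzyme genes and 4 of 7 lactate and pyruvate genes fell, and the other members of these groups did not pass the test. Of the 37 members, 14 were lower (37.8%, against 4.37% of all tested genes) and 2 were higher (Pfkfb3 and Pfkfb4: 5.41%, a share below the 7.81% of all tested genes) at P21 than at E14.5. Genes were tested in 1 fit of all 15 libraries with edgeR's quasi-likelihood test, and a gene was called changed at a Benjamini-Hochberg adjusted p under 0.05 over all tested genes. Log2 changes are given ± SE of the fit. The members' median log2 change was -0.61, against -0.01 over all tested genes. All 14 members called lower had 3 E14.5 libraries above all 3 P21 libraries, replicate 3 of E14.5 included. Over all members, 17 had E14.5 libraries wholly above those of P21 (17.4% of all tested genes did) and 3 wholly below (16.1%).

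Summed over all 37 members, counts made up 6077, 6437 and 6135 CPM at E14.5, 4380, 4121 and 4381 at P3, 3983, 3460 and 3434 at P10, 3221, 2754 and 3082 at P21, and 3053, 2920 and 3061 CPM at P56. On this scale every library was below those of all earlier ages up to P21, and P56 lay within the range of P21. With TMM scaling, the scale of the single genes, only E14.5 stood apart: the sums were 5373 to 5563 CPM at E14.5, 3737 to 3994 at P3, 3325 to 3747 at P10, 3017 to 3572 at P21 and 3477 to 3795 at P56, so that neighbouring ages from P3 on overlapped and P56 reached above P21. On the plain total, the 17 glycolytic enzyme genes alone made up 3281 to 3447 CPM at E14.5 and 1495 to 1600 CPM at P21. Up to P21, 22 members had their highest mean at E14.5, 3 at P3, 5 at P10 and 7 at P21. Among all tested genes, 30.4% were highest at E14.5. A test of any difference over the 12 libraries of the shared sequencing batch (all ages but P56) called 15 members (40.5%, against 12.3% of the genes tested).

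**Figure D1:**
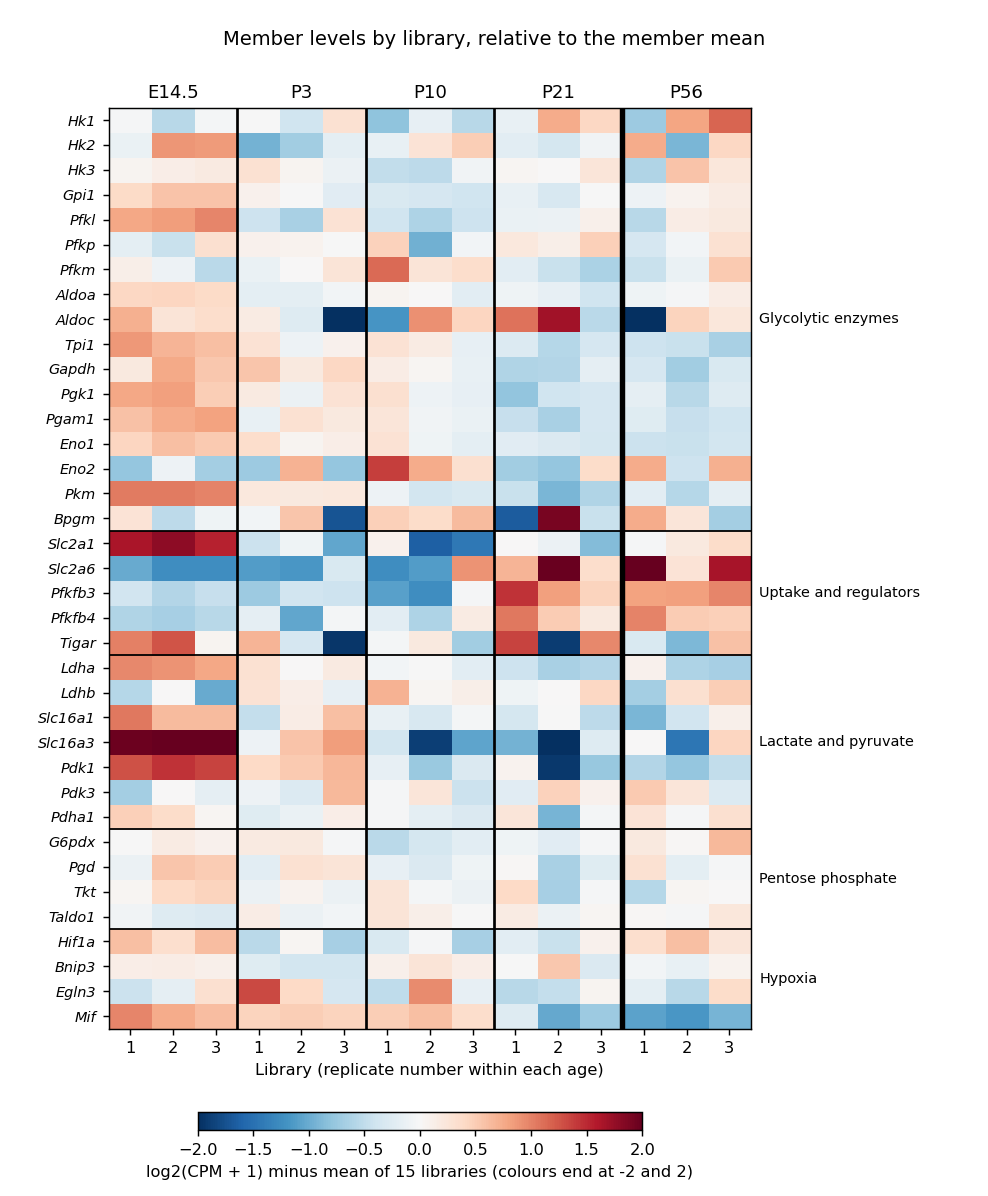
Level of each of the 37 members in each of the 15 libraries, as log2(CPM + 1) minus the mean over the libraries, with colours ending at -2 and 2. Columns are libraries in order of age, the heavy line sets off P56 (the other sequencing batch), and rows are grouped by role; most enzyme and lactate rows are red at E14.5, while Pfkfb3 and Pfkfb4 are red at P21 and P56.

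The glycolytic enzymes are described in the order of the pathway. Of 17 genes, 8 were lower (47.1%, against 4.37% of all tested genes) and 0 were higher at P21 than at E14.5 (edgeR, adjusted p under 0.05). The median log2 change was -0.66, and 9 had an unadjusted p under 0.05. Here and below, the share of all tested genes at an unadjusted p under 0.05 is not given. Counts at that threshold therefore have nothing to be set against. Hexokinases trap glucose in the cell as glucose 6-phosphate. Hk3, the hexokinase of myeloid cells, stood at 206, 217 and 223 CPM at E14.5, 244, 205 and 182 at P3, 141, 137 and 189 at P10, 203, 198 and 233 at P21 and 131, 294 and 233 at P56. Its E14.5 and P21 libraries overlapped (log2 change -0.03 ± 0.23, adjusted p = 0.959). Hk1, found in most tissues, ranged from 19.97 to 81.7 CPM and Hk2, the inducible form, from 17.5 to 64.3 CPM over the 15 libraries, and neither passed the test in any comparison between 2 ages.

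Gpi1 encodes the isomerase that makes fructose 6-phosphate. It was measured at 295, 335 and 334 CPM at E14.5, 239, 224 and 192 at P3, 182, 178 and 171 at P10, 204, 180.3 and 224 at P21 and 211, 237 and 253 at P56. All 3 E14.5 libraries were above the 12 others, and the fall to P21 passed the test (-0.66 ± 0.12, adjusted p = 0.00271). Phosphofructokinase is the committed step of glycolysis, and Pfkl encodes its liver form. Pfkl stood at 157, 164 and 181 CPM at E14.5, 68.8, 57.8 and 113 at P3, 69.7, 59.7 and 68.3 at P10, 83.4, 84.04 and 97.9 at P21 and 62.4, 101 and 105 at P56. The lowest E14.5 library was above every later library, and the difference between P21 and E14.5 was -0.92 ± 0.24 on the log2 scale (adjusted p = 0.0204). The other subunits, Pfkp (18.1 to 50.6 CPM) and Pfkm (6.21 to 23.5 CPM), did not pass the test in any comparison between 2 ages.

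Aldolase splits the 6-carbon sugar, and triosephosphate isomerase balances the resulting 3-carbon sugars. Aldoa was measured at 662, 668 and 644 CPM at E14.5, 435, 434 and 479 at P3, 512, 496 and 426 at P10, 466, 443 and 377 at P21 and 466, 485 and 552 at P56. The E14.5 libraries were the 3 highest of the 15, and P3 to P56 overlapped one another (P21 against E14.5: -0.62 ± 0.11, adjusted p = 0.0024). Tpi1 was measured at 535, 467 and 446 CPM at E14.5, 357, 273 and 309 at P3, 359, 327 and 262 at P10, 243, 196 and 231 at P21 and 219.9, 214 and 186 at P56. All E14.5 libraries of Tpi1 were above those of P3 and P10, and all of these above P21 (-1.11 ± 0.15, adjusted p = 0.000211 for P21 against E14.5). Aldoc, the brain aldolase, had 0 to 13.98 CPM and did not pass the test.

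The later steps, from glyceraldehyde phosphate to pyruvate, run through Gapdh, Pgk1, Pgam1, Eno1 and Pkm. Gapdh stood at 35.5, 52.6 and 45.3 CPM at E14.5, 45.8, 35.2 and 41.4 at P3, 34.3, 31.6 and 27.6 at P10, 19.9, 20.1 and 26.98 at P21 and 24.2, 18.5 and 24.7 at P56, and P21 was lower than E14.5 (-0.99 ± 0.23, adjusted p = 0.0107). Pgk1, which forms ATP, stood at 19.8, 20.6 and 16.1 CPM at E14.5, 12.9, 10.2 and 13.97 at P3, 14.2, 10.4 and 9.82 at P10, 6.06, 8.30 and 8.67 at P21 and 9.79, 7.30 and 9.17 at P56 (-1.3 ± 0.34, adjusted p = 0.0212). Both genes have near-identical copies in the genome, and their counts are uncertain. At 95% identity over at least 200 bases, 78 other GENCODE M21 genes matched the Gapdh transcript, 75 of them pseudogenes, and those in the table held 32.7% of the summed Gapdh and copy counts. How reads that map to several genes were handled is not given in the sources used here. Pgk1 had 4 such copies over 68.8% of its transcript and Pgam1 1 over 43.1%. Copies also matched Mif, Bnip3, Pkm and Ldha over 93.4, 94.2, 65.5 and 55% of the transcript, and held 1.16, 0.699, 0.359 and 0.585% of the summed counts there. Gpi1 (50.2%), Ldhb (76.8%) and Tpi1 (19.3%) had copies too. Together 11 members had a copy, and 9 had at least 50% of the transcript in copies. Few counts in copies, as for Pgk1 (0.304%), do not show that a gene's own counts are complete, so these genes are uncertain too. Pgam1 had 2.45 to 8.45 CPM and did not pass the test at P21 (-1.44 ± 0.53, adjusted p = 0.0946), although its E14.5 libraries were all above those of P21.

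Eno1, the common enolase, was measured at 247, 281 and 263 CPM at E14.5, 235, 190.4 and 202 at P3, 225, 172 and 161 at P10, 156, 151 and 144 at P21 and 137, 135 and 143 at P56. Its E14.5 libraries were the 3 highest, and the difference at P21 passed the test (-0.81 ± 0.14, adjusted p = 0.00124). Copies with 85.6% of its transcript in them held 2.01% of the summed counts. Pkm encodes pyruvate kinase, which makes pyruvate and ATP in the last step. Pkm stood at 631, 629 and 607 CPM at E14.5, 353, 350.1 and 354 at P3, 284, 236 and 247 at P10, 223, 162 and 202 at P21 and 263, 204 and 269 at P56. E14.5 lay above P3, P3 above P10, and P10 above P21 without overlap, and P56 overlapped P10 and P21. The means were 622 ± 13.3 CPM at E14.5 and 196 ± 31.3 at P21 (SD, n = 3), and Pkm had the smallest p of all members (-1.67 ± 0.14, adjusted p = 3.12e-06, edgeR). Eno2, the neuronal enolase, had at most 3.44 CPM. Bpgm, which makes 2,3-bisphosphoglycerate and is best known from red cells, had 2.72 to 19.7 CPM in 14 libraries and 45.2 CPM in P21 replicate 2, and did not pass the test.

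Of the 7 genes of lactate and pyruvate, 4 were lower (57.1%, against 4.37% of all tested genes) and 0 were higher at P21 than at E14.5, with a median log2 change of -1.08. Ldha encodes the lactate dehydrogenase subunit that favours lactate, and it had the highest CPM of all members at E14.5. Ldha was measured at 967, 927 and 852 CPM at E14.5, 613, 500.1 and 564 at P3, 479, 492 and 431 at P10, 371, 316 and 332 at P21 and 530.1, 323 and 313 at P56. The E14.5 libraries were above the 12 others and the P21 libraries were below those of P3 and P10, while P56 replicate 1 stood above the other 2 of its age (-1.43 ± 0.18, adjusted p = 0.000106 for P21 against E14.5). Ldhb, the subunit that favours pyruvate, had 6.92 to 25.0 CPM and did not pass the test (0.64 ± 0.4, adjusted p = 0.337).

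Monocarboxylate transporters carry lactate across the membrane, and Slc16a3 (MCT4) is the form known for export from glycolytic cells. Slc16a3 stood at 33.3, 62.1 and 47.1 CPM at E14.5, 7.29, 12.2 and 14.7 at P3, 5.84, 1.39 and 3.26 at P10, 3.62, 0.104 and 6.41 at P21 and 7.89, 2.25 and 10.9 at P56. No later library reached the lowest E14.5 library, and P21 replicate 2 held 2 counts. The change to P21 was the largest fall among the called members, but its SE was also the largest of them (-3.81 ± 0.98, adjusted p = 0.0196). Slc16a1 (MCT1) stood at 86.4, 64 and 63.8 CPM at E14.5, 29.1, 45.4 and 62.4 at P3, 36.99, 32.6 and 39.6 at P10, 31.8, 40.9 and 28.3 at P21 and 21.3, 31.1 and 43.8 at P56. Its E14.5 libraries were above all others, and the fall to P21 had -1.08 ± 0.3, adjusted p = 0.0301.

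Pyruvate dehydrogenase kinases switch off the entry of pyruvate into the mitochondria. Pdk1, a known HIF-1 target, was measured at 126, 144 and 135 CPM at E14.5, 68.8, 74.8 and 82.9 at P3, 46.3, 30.6 and 42.5 at P10, 54.8, 12.9 and 30.2 at P21 and 34.3, 29.8 and 36.5 at P56. E14.5 was above P3 and P3 above all libraries of P10, P21 and P56, and P21 replicate 2 was the lowest of the 15 (-2.05 ± 0.37, adjusted p = 0.00202 for P21 against E14.5). Without P21 replicate 2 the change in Pdk1 was -1.67 (adjusted p = 0.00115). Pdk3 had 26.7 to 68.2 CPM and went the other way in sign (0.4 ± 0.31, adjusted p = 0.454), without passing the test. Pdha1 encodes a subunit of the pyruvate dehydrogenase complex itself. It stood at 113, 104 and 83.3 CPM at E14.5, 68.4, 73.5 and 88.4 at P3, 79.5, 70.5 and 66.2 at P10, 96.02, 41.8 and 78.8 at P21 and 98.03, 79.7 and 101 at P56, with P21 replicate 2 lowest, and E14.5 and P21 overlapped (-0.47 ± 0.25, adjusted p = 0.246).

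**Figure D2:**
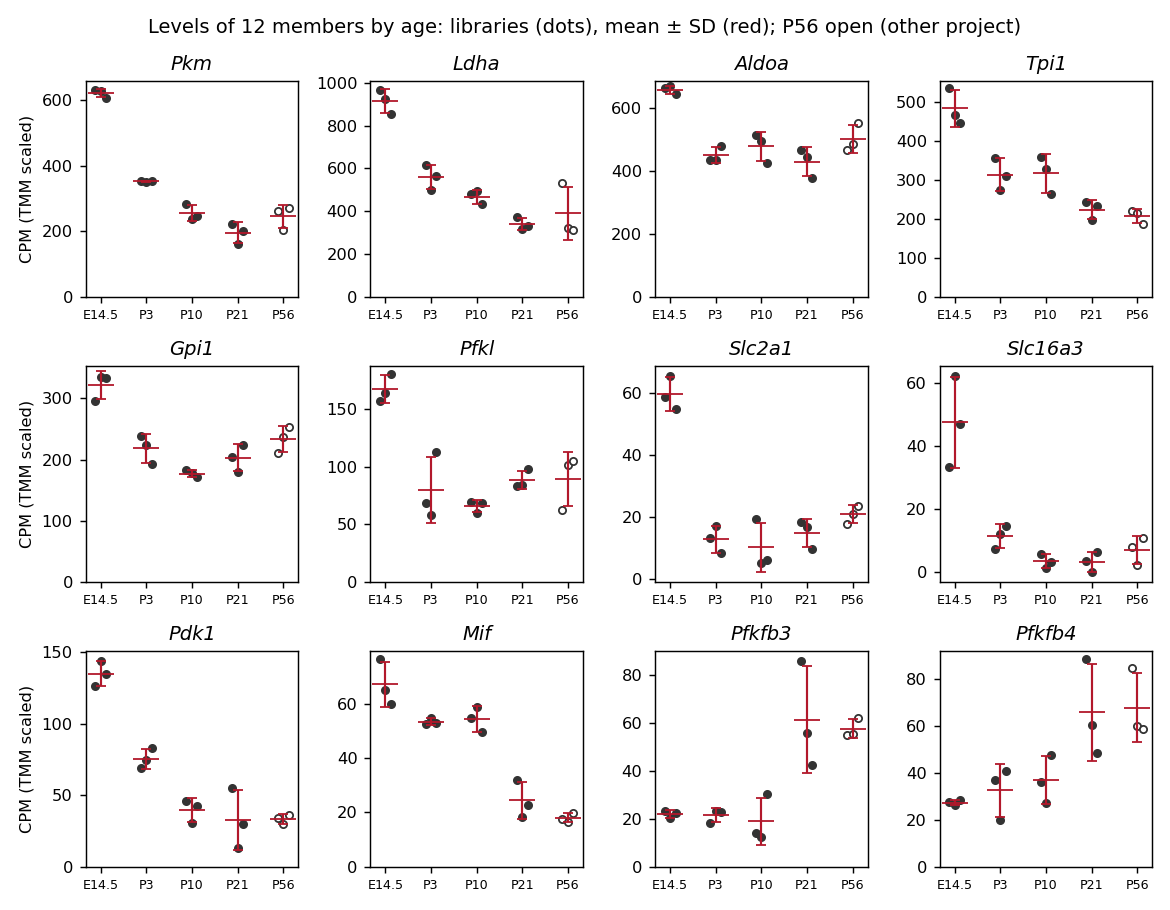
Levels of 12 members in CPM scaled by TMM (each vertical axis is linear and differs between panels) against age; dots are libraries, red lines the mean ± SD of 3, and open dots mark P56, the other sequencing batch. Pkm has 622 ± 13.3 CPM at E14.5 and 196 ± 31.3 CPM by P21, while Pfkfb3 has 22.01 ± 1.55 and 61.3 ± 22.3 CPM.

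Of the 5 genes of glucose uptake and regulation, 1 was lower (20%, against 4.37% of all tested genes) and 2 were higher (40%, against 7.81%) at P21 than at E14.5. Slc2a1 encodes GLUT1, the common glucose transporter. Slc2a1 stood at 58.7, 65.6 and 54.9 CPM at E14.5, 13.2, 17 and 8.33 at P3, 19.3, 5.16 and 6.11 at P10, 18.3, 16.8 and 9.54 at P21 and 17.9, 20.95 and 23.7 at P56. The lowest E14.5 library had 54.9 CPM and the highest of the 12 later libraries 23.7 CPM, and P3, P10 and P21 overlapped (-2.01 ± 0.46, adjusted p = 0.0108 for P21 against E14.5). Slc2a6, a transporter of leukocyte lysosomes, had 4, 0 and 0 counts at E14.5 and 57, 160 and 42 counts at P21. Those P21 libraries gave 2.79, 8.35 and 2.02 CPM, and the difference did not pass the test (adjusted p = 0.0845).

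Pfkfb3 and Pfkfb4 encode enzymes that make and break down fructose 2,6-bisphosphate, the strongest activator of phosphofructokinase. Pfkfb3, whose enzyme mostly makes it, was measured at 23.4, 20.3 and 22.3 CPM at E14.5, 18.3, 23.4 and 22.9 at P3, 13.98, 12.5 and 30.4 at P10, 85.95, 55.6 and 42.4 at P21 and 55.03, 55.5 and 62.2 at P56. The P21 and P56 libraries were above all libraries of E14.5, P3 and P10 (1.48 ± 0.33, adjusted p = 0.00888 for P21 against E14.5). Pfkfb4 was measured at 27.6, 26.3 and 28.4 CPM at E14.5, 37.1, 19.9 and 40.96 at P3, 36.2, 27.3 and 47.5 at P10, 88.5, 60.7 and 48.4 at P21 and 84.8, 60.2 and 58.7 at P56. Its P21 libraries were above every earlier one, with P21 replicate 1 highest (1.26 ± 0.31, adjusted p = 0.0141). The Pfkfb4 call was lost with total counts in place of TMM scaling (0.95, adjusted p = 0.0533) and without P21 replicate 1 (adjusted p = 0.0681) or either of E14.5 replicates 1 and 2. Tigar, whose product lowers fructose 2,6-bisphosphate, had 0.167 to 10.5 CPM and did not pass the test (-0.22 ± 1.17, adjusted p = 0.936).

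None of the 4 pentose phosphate genes was called between any 2 ages compared, where 12.2% of all tested genes were called at P21 against E14.5, so 0 of 4 does not set the group apart. Of the 4, 1 had an unadjusted p under 0.05 at P21 against E14.5. Over all alternative fits, Pgd was called at P21 against E14.5 in 3 and G6pdx in 1. G6pdx encodes glucose 6-phosphate dehydrogenase, which opens the pathway. It stood at 159, 179.8 and 169 CPM at E14.5, 181, 184 and 157 at P3, 109, 124 and 138 at P10, 151, 136 and 157 at P21 and 183, 163 and 249.9 at P56. The P10 libraries were below those of E14.5 and P3, and the difference between P10 and P3 had an adjusted p of 0.27. Pgd, the next NADPH-forming enzyme, was measured at 147, 234 and 227 CPM at E14.5, 138, 196 and 191 at P3, 142, 130.2 and 151 at P10, 162, 101 and 134 at P21 and 197, 139 and 156 at P56. E14.5 replicate 1 overlapped the P21 libraries (-0.61 ± 0.22, adjusted p = 0.0861).

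Tkt and Taldo1 encode transketolase and transaldolase, which return pentose carbon to glycolysis. Tkt stood at 175, 226 and 232 CPM at E14.5, 157, 179 and 158 at P3, 204, 166 and 157 at P10, 226, 107 and 167 at P21 and 115, 175 and 171 at P56. P21 replicate 2 was the lowest of the 15, and E14.5 and P21 overlapped (-0.34 ± 0.24, adjusted p = 0.404). Taldo1 stood at 309, 272 and 267 CPM at E14.5, 359.8, 299.8 and 314 at P3, 388, 353 and 326 at P10, 365, 299 and 334 at P21 and 333, 321 and 381 at P56. Its E14.5 libraries were below those of P10 and overlapped those of P21 (0.24 ± 0.12, adjusted p = 0.246), and the sign of this change turned with total counts in place of TMM scaling (-0.08).

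Of the 4 hypoxia genes, 1 was lower at P21 than at E14.5 (25%, a share that rests on 1 gene, against 4.37% of all tested genes) and 0 were higher. Hif1a encodes HIF-1α, whose protein level is mainly set by its breakdown. It stood at 124, 104 and 126 CPM at E14.5, 56.3, 83.7 and 51.1 at P3, 66.4, 80.9 and 51.1 at P10, 70.3, 60.1 and 87.1 at P21 and 103, 125 and 96.7 at P56. All E14.5 libraries were above those of P3, P10 and P21, and P56 overlapped E14.5. The change to P21 did not pass the test (-0.7 ± 0.22, adjusted p = 0.0572), while the test over the 4 ages of the shared batch just did (adjusted p = 0.0474). The latter call was lost with upper quartile scaling and with the title number as a replicate block (adjusted p up to 0.0812), and in 9 of 12 fits that left out 1 library (up to 0.189). Mif encodes a cytokine that HIF-1 is known to induce. Mif was measured at 76.3, 65.2 and 59.8 CPM at E14.5, 52.5, 54.8 and 52.8 at P3, 54.6, 58.99 and 49.6 at P10, 32.02, 18.5 and 22.9 at P21 and 17.7, 16.6 and 19.8 at P56. E14.5 was above P3 and P10, which overlapped, and P21 and P56 were below all of these (-1.45 ± 0.21, adjusted p = 0.000368 for P21 against E14.5). Bnip3, a mitophagy receptor, had 15.3 to 29.5 CPM (0 ± 0.26, adjusted p = 1), and Egln3, an oxygen-sensing hydroxylase, had at most 2.68 CPM.

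**Figure D3:**
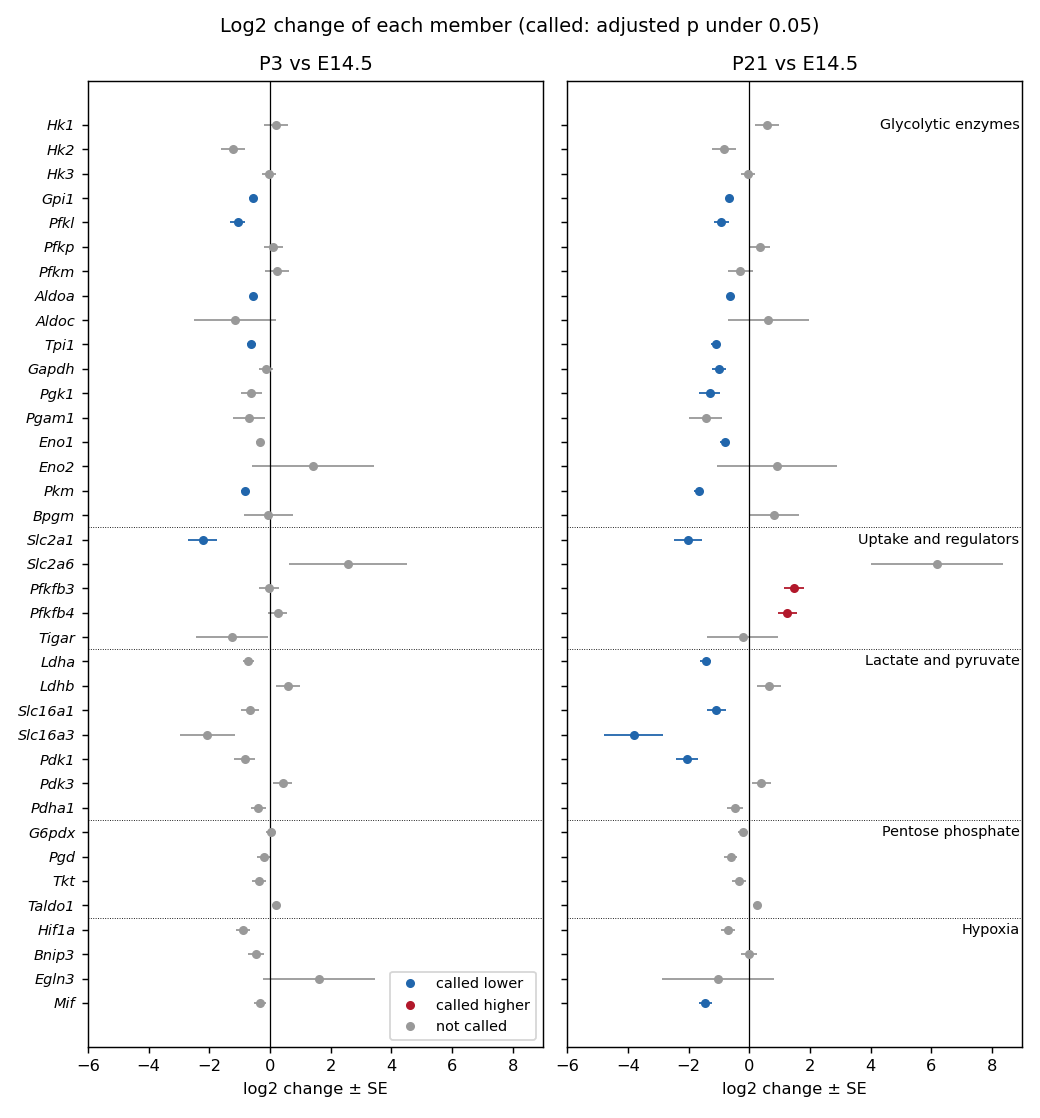
Log2 change ± SE of each member at P3 (left) and at P21 (right) against the same E14.5 libraries, by role; blue points were called lower, red higher and grey not called (edgeR, adjusted p under 0.05). Calls at P3 are 6 lower and 0 higher, and at P21 14 lower and 2 higher.

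The steps between neighbouring ages differed in size. Between E14.5 and P3, 6 members were called lower (16.2%, against 0.388% of all tested genes) and 0 higher (against 1.67%), and 13 had an unadjusted p under 0.05. They were Pkm (-0.82 ± 0.14, adjusted p = 0.00633), Aldoa (-0.55 ± 0.11, adjusted p = 0.0211), Gpi1 (-0.56 ± 0.12, adjusted p = 0.0318), Tpi1 (-0.62 ± 0.15, adjusted p = 0.0436), Pfkl (-1.07 ± 0.24, adjusted p = 0.0325) and Slc2a1 (-2.22 ± 0.47, adjusted p = 0.023). So 5 of the 6 are glycolytic enzymes and the sixth is the glucose transporter GLUT1. Ldha just missed the threshold (-0.71 ± 0.17, adjusted p = 0.0517), as did Hif1a (-0.89 ± 0.22, adjusted p = 0.0618). The libraries of 18 members lay wholly below those of E14.5 (13% of all tested genes did) and of 0 members wholly above. The median log2 change was -0.36, against 0.01 over all tested genes. This comparison and that of P21 share the E14.5 libraries, so their values are not independent. Pkm was the 1 call kept when any library was left out: without 1 library of E14.5 or P3 the count was 1 or 2.

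From P3 to P10 no member was called (0.402% of all tested genes were) with edgeR, DESeq2 or limma, and 4 had an unadjusted p under 0.05. The smallest was that of Pkm (-0.46 ± 0.14, adjusted p = 0.222). From P10 to P21, Pfkfb3 rose (1.7 ± 0.33, adjusted p = 0.0308) and Mif fell (-1.15 ± 0.21, adjusted p = 0.0194), calls that 0.96% (higher) and 0.184% (lower) of all tested genes also had, and 9 members had an unadjusted p under 0.05. Neither call held without P10 replicate 1, P10 replicate 2 or P21 replicate 2, and Pfkfb3 was also lost without P21 replicate 1 or E14.5 replicate 2 and with the replicate block (adjusted p = 0.0629). Both were lost when only the libraries of P10 and P21 were fitted. Between P21 and P56 no member was called (0.272% of all tested genes were) with edgeR, DESeq2 or limma, and 3 had an unadjusted p under 0.05. These were G6pdx (0.42 ± 0.16, adjusted p = 0.312), Hif1a (0.58 ± 0.22, adjusted p = 0.336) and Pkm (0.33 ± 0.14, adjusted p = 0.373), all higher at P56 in sign, where age and sequencing batch cannot be told apart.

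Shares set listed genes of a family against one another on 1 scale, as counts per kb of exon in GENCODE M21, with no test. They are shares of the members named, and related genes outside the 37 are left out, such as Slc16a7 (50.6 to 78.8 CPM at E14.5), Pdk2 (25.4 to 38.2 CPM at P21) and Eno3 (5.84 to 19.9 CPM at P21). Pfkl made up 80.5 to 83.8% of the Pfkl, Pfkp and Pfkm sum at E14.5, 59.5 to 72.5% at P3, 49.1 to 63.8% at P10 and 68.5 to 72.2% at P21. The share of Pfkm, the muscle form, was 6.18 to 11.4% at E14.5 and 23.6 to 33.1% at P10. The length used is the union of all annotated exons of a gene, 13401 bases for Pfkp and 3340 for Pfkm, and the order of genes depends on it. In CPM, Pfkp had the higher mean at P10 (34.5, against 16.4 for Pfkm). The share of Pfkl was thus higher in every E14.5 library than in any later one. Hk3 was the largest of Hk1, Hk2 and Hk3 in every library, with shares between 74.3 and 90.4% over the 15 libraries. Ldhb made up 1.68 to 3.31% of the Ldha and Ldhb sum at E14.5 and, by P21, 7.36 to 11.4%, while its own level was 10.6 ± 4.13 and 16.5 ± 3.33 CPM at these ages. Pdk1 held 52.2 to 60.9% of the Pdk1 and Pdk3 sum at E14.5, and its P21 libraries had 6.65 to 32.9%. On this scale Pdk3 was the larger of the pair in every library from P3 on, while in CPM Pdk1 was the larger in every P3 library (means 75.5 and 48.03). Slc16a3 held 24.3 to 44.7% of the Slc16a1 and Slc16a3 sum at E14.5, and its P21 libraries had 0.212 to 15.9%. Pfkfb3 was the smaller of the Pfkfb3 and Pfkfb4 pair in every library, with 33.3 to 35.4% of it at E14.5, and its P21 share was 36.1 to 38.5%.

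**Figure D4:**
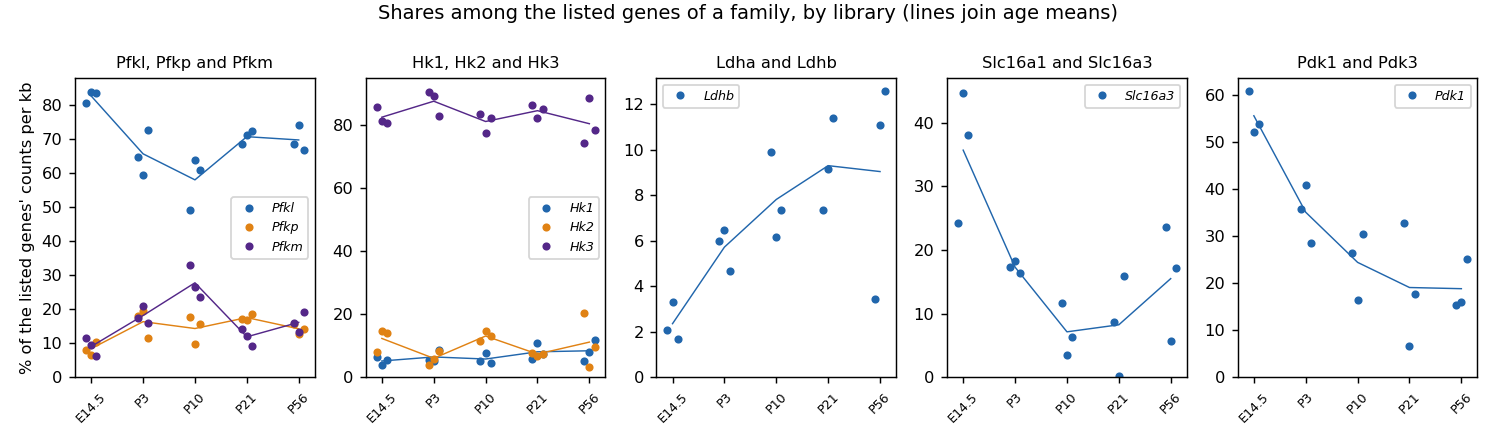
Share (%) of each gene in the sum of the listed genes named above its panel, as counts per kb of exon, by library (dots) and age, with lines through the age means; related genes outside the 37 are not in the sums. Pfkl has its highest share at E14.5, Hk3 is the largest of its 3 throughout, Ldhb has its lowest mean share at E14.5, and Slc16a3 and Pdk1 have their highest mean shares there.

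Further genes of the same pathways were counted from a list of 89, of which 77 were tested. At P21 against E14.5, 6 were higher and 7 lower, or 16.9% against 12.2% of all tested genes, with a median log2 change of -0.18. Between neighbouring ages no gene of the list was called by edgeR at any step, and 13, 15, 15 and 9 had an unadjusted p under 0.05 at the successive steps. The share of all tested genes at that unadjusted threshold is not given here, so these counts cannot be set against it. On the same 77 genes limma called 4, 2, 0 and 0 at these steps and DESeq2 8, 3, 6 and 4, so only edgeR had 0 calls at all 4 steps. At P21 against E14.5, limma called 17 and DESeq2 20. Among 22 tested genes of other glycolysis, glycogen and galactose steps, 4 were lower (18.2%, against 4.37% of all tested genes) and 0 higher. Pygl and Pygm encode glycogen phosphorylases, which free glucose from stored glycogen. Pygl stood at 135, 99.5 and 136 CPM at E14.5, 107, 82.8 and 101 at P3, 41.1, 30.1 and 45.8 at P10, 15.1, 10.3 and 29.5 at P21 and 13.1, 30.1 and 18.95 at P56 (-2.75 ± 0.38, adjusted p = 0.000266). Pygm stood at 69.4, 63.9 and 51.3 CPM at E14.5, 25.1, 30.2 and 21.3 at P3, 17.5, 13.9 and 10.5 at P10, 2.10, 5.43 and 6.46 at P21 and 2.65, 11.03 and 2.33 at P56 (-3.72 ± 0.59, adjusted p = 0.000777). For both, all E14.5 libraries were above those of P10, P21 and P56.

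Among 17 tested genes of transport and pyruvate entry, 4 were higher (23.5%, against 7.81% of all tested genes) and 0 lower at P21. Bsg encodes basigin, the partner that brings monocarboxylate transporters to the membrane, and it stood at 285, 357 and 329.8 CPM at E14.5, 411, 491 and 428 at P3, 579, 604 and 519 at P10, 598, 554 and 531 at P21 and 683, 539 and 551 at P56 (0.79 ± 0.13, adjusted p = 0.000881). The E14.5 libraries of Bsg were below all others, the reverse of the order in Slc16a1 and Slc16a3. The other 3, named after their values were seen, were Mpc1 (1.34 ± 0.31, adjusted p = 0.0101) and Mpc2 (0.72 ± 0.2, adjusted p = 0.0289), which form the mitochondrial pyruvate carrier, and Pdk2 (1.16 ± 0.35, adjusted p = 0.0465). Of 9 tested genes of the pentose list, 1 was lower (11.1%, against 4.37% of all tested genes) and 0 were higher. It was Rrm1 (-1.8 ± 0.21, adjusted p = 7.8e-05), which encodes a ribonucleotide reductase subunit of DNA synthesis and not a pentose phosphate enzyme. Its mean was 396 ± 47.4 CPM at E14.5 and 114 ± 24.9 at P21 (SD, n = 3). Of 29 tested hypoxia genes, 2 were higher and 2 lower, or 6.9% each way, against 7.81% and 4.37% of all tested genes. The 2 lower ones, named after their values were seen, were Plod1, a collagen lysyl hydroxylase gene (318, 348 and 350 CPM at E14.5 and 246, 212 and 239 at P21, -0.54 ± 0.15, adjusted p = 0.033), and Ankrd37 (7.45 ± 1.07 CPM (SD, n = 3) at E14.5 and 0, 0.0522 and 0.0482 at P21, adjusted p = 0.0107). Bnip3l, a mitophagy receptor related to Bnip3, stood at 35.4 ± 9.37 CPM at E14.5 and 80.2 ± 20.8 CPM at P21 (1.18 ± 0.23, adjusted p = 0.00357). Hilpda, whose product binds lipid droplets, had its highest mean at P10, with 33.3, 32.3 and 26.3 CPM at E14.5, 115, 104 and 82.1 at P10 and 72.4, 93.1 and 39.3 at P21 (adjusted p = 0.00532 for any difference to P21).

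Calls were recounted with single libraries left out and with E14.5 replicate 3 as the only library of its age. Of the 16 members called at P21 against E14.5, 10 kept their call under all 9 other settings and with any 1 library left out. They were Pkm, Ldha, Tpi1, Eno1, Aldoa, Gpi1, Pdk1, Slc2a1, Mif and Pfkfb3. Calls of Slc16a1, Slc16a3, Pfkl, Pgk1, Gapdh and Pfkfb4 were all lost without E14.5 replicate 2, which left 10 calls, and over these settings and left-out libraries their adjusted p reached at most 0.242 (Pgk1). With E14.5 replicate 3 as the only library of its age, all 6 calls at P3 were lost (Pkm: -0.77, adjusted p = 0.332), and 4 members were called lower at P21 and 0 higher. The 4 were Pkm (-1.62, adjusted p = 0.000942), Ldha (-1.32, adjusted p = 0.0181), Tpi1 (-0.99, adjusted p = 0.0343) and Mif (-1.28, adjusted p = 0.0492). The 6 calls lost at P3 and the 12 lost at P21 all kept their sign, with log2 changes of 79 to 109% and 81.5 to 111% of those with all 3 libraries (Slc2a1 at P3: -2.08, adjusted p = 0.535; Pfkfb3 at P21: 1.47, adjusted p = 0.246). With a lone library the spread is taken from the other ages, and replicate 3 also differed from the other 2 in fibroblast and osteoclast genes, so this fit does not measure sex alone. The X-linked members are Pgk1, Pdk3, Pdha1 and G6pdx, and of them only Pgk1 was called in a comparison of 2 ages.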

How the data were processed

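The values used were raw read counts per gene symbol, as the authors deposited them in 1 table of 15 libraries. Per the labels' protocols, sorted cells gave RNA for SMARTer Ultra Low Input v4 cDNA and Nextera XT libraries, and per the submitters' processing notes bcl2fastq 2.18, STAR 2.7.8a and featureCounts 2.0.2 were used. Genome build, annotation, strand setting and the rule for reads of several genes are not given in the sources used here. Exons of Bnip3 (22.3%), Pdha1 (16.1%), Pkm (15.3%), G6pdx (13.6%), Gpi1 (11.5%) and Pfkm (10.7%) overlap other GENCODE M21 genes. Aldoa has another, shorter GENCODE M21 entry of the same name. The longer entry was used, and genes of the same name were left out of this overlap. Of the 53546 symbols, 50067 matched GENCODE M21.

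Counts were tested in edgeR 4.0.16 (R 4.3.3) with TMM factors (0.8071 to 1.158), filterByExpr by age, robust quasi-likelihood fits with age as the only term, and Benjamini-Hochberg adjustment over all genes tested. The code was tested on simulated data. DESeq2 1.42.0, limma 3.58.1 (voom), other scalings and filters, single ages and left-out libraries were alternatives. Copies were found with BLAST 2.17.0. Libraries are numbered 1 to 3 within an age as titled, and P56, titled 4 to 6, likewise. Libraries of the same title number had little deviation in common: deviations from age means correlated at -0.058 to 0.087 over 18 pairs of the same number. These values do not show whether libraries of the same number were handled together. The members and all lists were chosen with earlier results of these data known. Every library's value is given for members called in a comparison of 2 ages or reaching 100 CPM, and up to 5 called genes of the further list, by smallest p per comparison, are named. Counting error falls with depth, and no molecular identifiers are named.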

Additional observations from a re-analysis of the deposited data

How the results depend on the processing

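Counts of called members kept the same size class (within 1.5 times) under most alternatives. A replicate block by title number gave 7 calls at P3 vs E14.5 (6 without it) and 16 at P21 vs E14.5 (16 without it). The block gave 2 at P21 vs P10 (2 without it), 0 at P10 vs P3 (0 without it) and 13 for any difference E14.5 to P21 (15 without it). Equal counts were not always the same members: the block lost Gpi1 and gained Hk2 and Ldha at P3 vs E14.5, lost Pfkfb3 and gained Ldha at P21 vs P10, and lost Slc16a1, Gapdh and Hif1a and gained Hk2 for any difference. It has no value for P56, whose numbers differ. Fitting only the ages compared, which has no separate value for any difference, gave 10 at P3 vs E14.5 and 0 at P21 vs P10. With E14.5 replicate 3 alone at E14.5, a fit chosen after seeing the data, the counts were 0 at P3 vs E14.5, 4 at P21 vs E14.5 and 2 for any difference. Leaving out each library in turn gave 1 to 7 at P3 vs E14.5, 10 to 18 at P21 vs E14.5, 0 to 3 at P21 vs P10, 10 to 15 for any difference, and 0 at both P10 vs P3 and P56 vs P21. The cause of these shifts was not tested, beyond fewer libraries or other ages in the fit.

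No member's call turned its direction. Total counts in place of TMM scaling moved the median of all tested genes by -0.32 at P21 vs E14.5, by -0.18 at P21 vs P10 and by -0.13 at P56 vs P21. The members' median at P21 vs E14.5 was then -0.93, with 19 called lower and 1 higher. With it, 19 uncalled changes of 17 members turned their sign or moved to or from 0 at 2 decimals, the largest being 0.24 with TMM scaling (Taldo1, P21 vs E14.5) and -0.32 with total counts (Bnip3, P21 vs E14.5). Groups of 3 libraries are too few for an outlier test, and genes of a few CPM (Eno2, Egln3, Slc2a6, Aldoc, Tigar) had SEs above 1 on the log2 scale.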
